A study of Mus musculus with 6 samples.

Results

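Wnt signalling was examined here through 46 genes measured in bladders of mouse embryos with and without the transcription factor Klf5. The genes are all those of the array annotation whose single symbol is Wnt, Fzd, Dkk, Sfrp or Rspo followed by a number, together with Wif1, Lrp5, Lrp6, Axin2 and Lef1. They are 46 of the 19938 genes tested and fall into 19 Wnt ligands, 12 receptors, 4 R-spondins, 9 secreted inhibitors and 2 response genes. No member was removed for a low value, and each had 1 array feature except Wnt4, which had 2.

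The Klf5-deleted group (labelled Klf5 ∆/∆) comprised 3 pools of bladders, and the control group (Klf5+/+ ShhGfpCre+) another 3, all taken at E14.5, with 2 bladders in each pool and 1 Affymetrix Mouse Gene 1.0 ST array per pool. ShhGfpCre places a fusion of GFP and the Cre recombinase under the control of the Shh gene, which is active in the epithelium lining the bladder. The labels name this allele for the controls and do not name it for the Klf5-deleted group, where the deletion was taken to lie in Shh-expressing epithelium. Per the labels whole bladders were extracted, although the source is also called bladder urothelium. Markers of urothelium, smooth muscle and mesenchyme were all read on these arrays, so the values describe a mixture of cells. Mean log2 levels were 10.64 in Klf5-deleted and 12.41 in control bladders for Krt8, 14.02 and 14.11 for Acta2, and 13.65 and 13.74 for Vim. RMA gives no value of 0, and no feature could be called present or absent.

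Wnt proteins are secreted, lipid-modified ligands that bind Frizzled receptors together with the co-receptors Lrp5 or Lrp6. In the canonical branch this stabilises beta-catenin, which acts with Lef/Tcf factors and switches on feedback genes such as Axin2, while other ligands act through planar polarity and related branches. R-spondins strengthen the signal by protecting Frizzled receptors from removal, and Dkk, Sfrp and Wif1 proteins restrain it outside the cell. In the bladder, Shh from the urothelium is known to act on the stroma beneath it, which in turn makes Wnt ligands.

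Klf5 itself read 10.12, 10.34 and 10.23 in Klf5-deleted bladders, against 10.84, 10.63 and 10.97 in control bladders, on the log2 scale. The groups did not overlap, and the difference was -0.59 (adjusted p = 0.0381 by limma). It was past the threshold without control 2 (adjusted p = 0.0167), and not when any other single array was left out, with an adjusted p by limma of up to 0.156. Shh, the gene that drives Cre, read 9.10, 9.07 and 9.15 in Klf5-deleted bladders, against 9.45, 9.43 and 10.01 in control bladders. Its groups did not overlap, but the difference of -0.52 did not pass (adjusted p = 0.168 by limma). Of 15 urothelial markers 11 fell and none rose; their mean log2 level per array was 9.11 to 9.37 in Klf5-deleted bladders and 10.60 to 10.83 in controls, and the median difference was -1.51. Of 5 mesothelial markers Msln (-1.42) and Krt19 (-1.46), which is also in the urothelial list, fell and Wt1 (0.54) rose, with list means of 9.64 to 9.74 against 10.02 to 10.28. The 8 smooth muscle markers were all lower (6 of 8 with arrays centred on housekeeping genes) but none passed the threshold, with list means of 12.28 to 12.50 against 12.50 to 12.79. One array stood apart: the mean of 4 placental markers was 11.57 on control 2, and 5.41 to 7.67 elsewhere.

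Among the 46 Wnt genes, changes that passed the test were few and were both falls: Wnt7b, a ligand made by many epithelia, and Dkk3, a divergent Dickkopf protein. The threshold was an adjusted p of 0.05 over all 19938 genes, with limma fitted to all of them. The 2 members called were 4.35% of the 46, where 1.98% of all genes were called in either direction. Both were falls, which were 1.59% of all genes; no member rose, where rises were 0.386% of all genes. At an unadjusted p under 0.05 by limma there were 12 members, or 26.1%, against 14.4% of all genes. Of these 4 were lower (Wnt7b, Wnt4, Fzd4 and Dkk3), where 8.08% of all genes were, and 8 were higher (Wnt5a, Wnt11, Fzd3, Fzd8, Lrp6, Rspo2, Rspo3 and Sfrp2), where 6.34% of all genes were. The median difference of the members was -0.02 on the log2 scale, from -0.69 to 0.67, and that of all genes was -0.01.

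The groups did not overlap for 12 members, 5 of them lower and 7 higher in the Klf5-deleted bladders. That is 26.1% of the members, against 20.5% of all genes, with 11.8% of all genes lower and 8.67% higher. The members were Wnt7b, Wnt4, Fzd4, Dkk3 and Lef1 on the lower side, and Wnt5a, Wnt11, Fzd1, Fzd3, Lrp6, Sfrp1 and Sfrp2 on the higher side. The smallest p of an exact permutation test at this size is 0.1, so calls on single genes come from limma, which pools information on spread over genes.

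**Figure D1:**
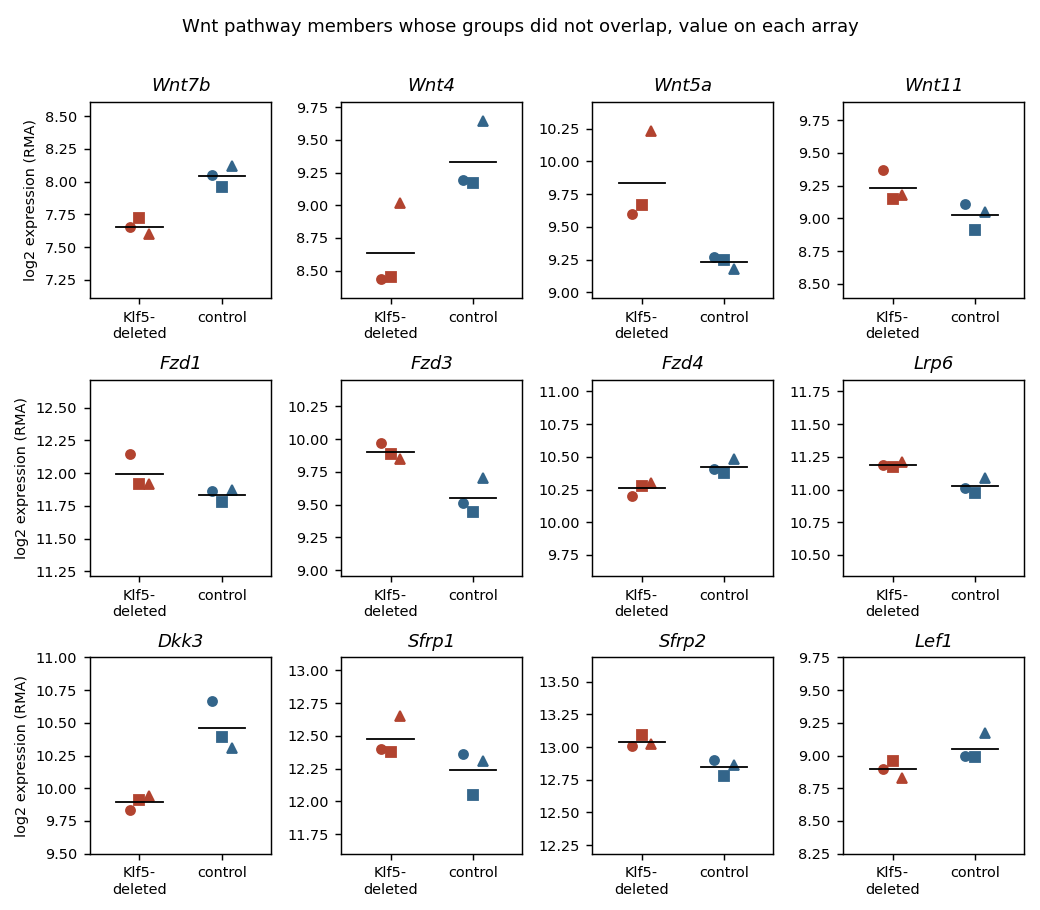
Log2 expression (RMA, y axes, all of equal span) of the 12 Wnt pathway members whose groups did not overlap; circles, squares and triangles are arrays 1, 2 and 3 of each group and bars are group means. Wnt7b and Dkk3 lie lower on all 3 Klf5-deleted arrays by more than the spread within groups, and the Wnt4 and Wnt5a values of Klf5-deleted array 3 lie above those of the other arrays of its group.

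Of the Wnt ligands, only Wnt7b passed the threshold, and the 4 with groups apart were split between lower and higher. Wnt7b, which lung and collecting duct epithelium also make, read 7.65, 7.72 and 7.60 in Klf5-deleted bladders, against 8.05, 7.96 and 8.12 in control bladders. All Klf5-deleted arrays lay below all control arrays, at 7.66 ± 0.06 against 8.04 ± 0.08 (SD, n = 3 each). The difference was -0.39 on the log2 scale (95% confidence interval -0.55 to -0.22), a level 1.31-fold lower, with an adjusted p of 0.0404 by limma. Leaving out any single array kept the difference between -0.43 and -0.35 but moved the adjusted p by limma to between 0.0528 and 0.159. Centring arrays on housekeeping genes, which moved every difference up by about 0.09, gave -0.30 with an adjusted p of 0.12 by limma. A second quantile normalization gave -0.34 (adjusted p = 0.108 by limma). The urothelial markers fell by a median of 1.51 on the log2 scale. Wnt7b lay close to the array medians of 7.68 to 7.80, and RMA compresses differences of dim features. The sizes of these falls are therefore not directly comparable. In whole bladders fewer cells of a type and less RNA per cell cannot be told apart.

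Wnt4, a ligand needed for kidney tubules and the female reproductive tract, had the largest difference among the ligands and did not pass. It read 8.44, 8.45 and 9.02 in Klf5-deleted bladders, against 9.19, 9.17 and 9.64 in control bladders. The groups lay apart, with array 3 the highest of each. The difference was -0.69 on the log2 scale (SE 0.19, adjusted p = 0.142 by limma). The other Wnt4 feature read 7.79, 7.93 and 8.18 in Klf5-deleted bladders, against 8.67, 8.37 and 8.54 in control bladders, a difference of -0.56 with no overlap either.

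Wnt5a, the mesenchymal ligand that drives outgrowth of limbs and genital tubercle largely without beta-catenin, was the ligand with the largest positive difference. It read 9.60, 9.67 and 10.23 in Klf5-deleted bladders, against 9.27, 9.25 and 9.18 in control bladders. Every Klf5-deleted array lay above the tightly grouped controls, and array 3 was the farthest away. The difference of 0.60 (95% confidence interval 0.23 to 0.97, SE 0.16) had an adjusted p of 0.133 by limma and did not pass. Without Klf5-deleted 3 it was 0.40, the lowest value when 1 array was left out. Wnt11, a ligand of ureteric bud tips and of cell movements, read 9.37, 9.15 and 9.18 in Klf5-deleted bladders and 9.11, 8.91 and 9.05 in control bladders. Its groups did not overlap, but the difference of 0.21 did not pass (adjusted p = 0.331 by limma).

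The other 15 ligands had overlapping groups and adjusted p of at least 0.484 by limma. Wnt2 and Wnt2b, the ligands that specify the lung, differed by 0.00 and 0.02 on the log2 scale, with 95% confidence intervals of -0.25 to 0.25 and -0.23 to 0.27. Wnt5b, the close relative of Wnt5a, differed by -0.01, and Wnt7a, that of Wnt7b, by -0.04. Wnt10a, a ligand of skin and teeth, differed by -0.16 (-0.08 without control 2) and Wnt8b by 0.12, the widest differences of the 15. The other 9 (Wnt1, Wnt3, Wnt3a, Wnt6, Wnt8a, Wnt9a, Wnt9b, Wnt10b and Wnt16) lay between -0.07 and 0.03. Of all 19 ligands 14 were lower and 5 higher, but that split depended on the setting. Without control 2 there were 10 lower and 9 higher. Centring arrays on housekeeping genes, which moved every difference of all genes up by about 0.09, gave 3 lower and 16 higher.

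Some Wnt genes stand next to each other in the mouse genome. In the RefSeq order of protein-coding genes (assembly GRCm38.p6) 4 pairs of members were neighbours. Wnt6 and Wnt10a on chromosome 1 differed by 0.03 and -0.16, and Wnt3a and Wnt9a on chromosome 11 by -0.05 and -0.04. Wnt9b and Wnt3, also on chromosome 11, differed by -0.01 and -0.04, and Wnt10b and Wnt1 on chromosome 15 by -0.05 each. No gene of these pairs passed the threshold, and the 4 ligands whose groups lay apart stood in none of them.

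**Figure D2:**
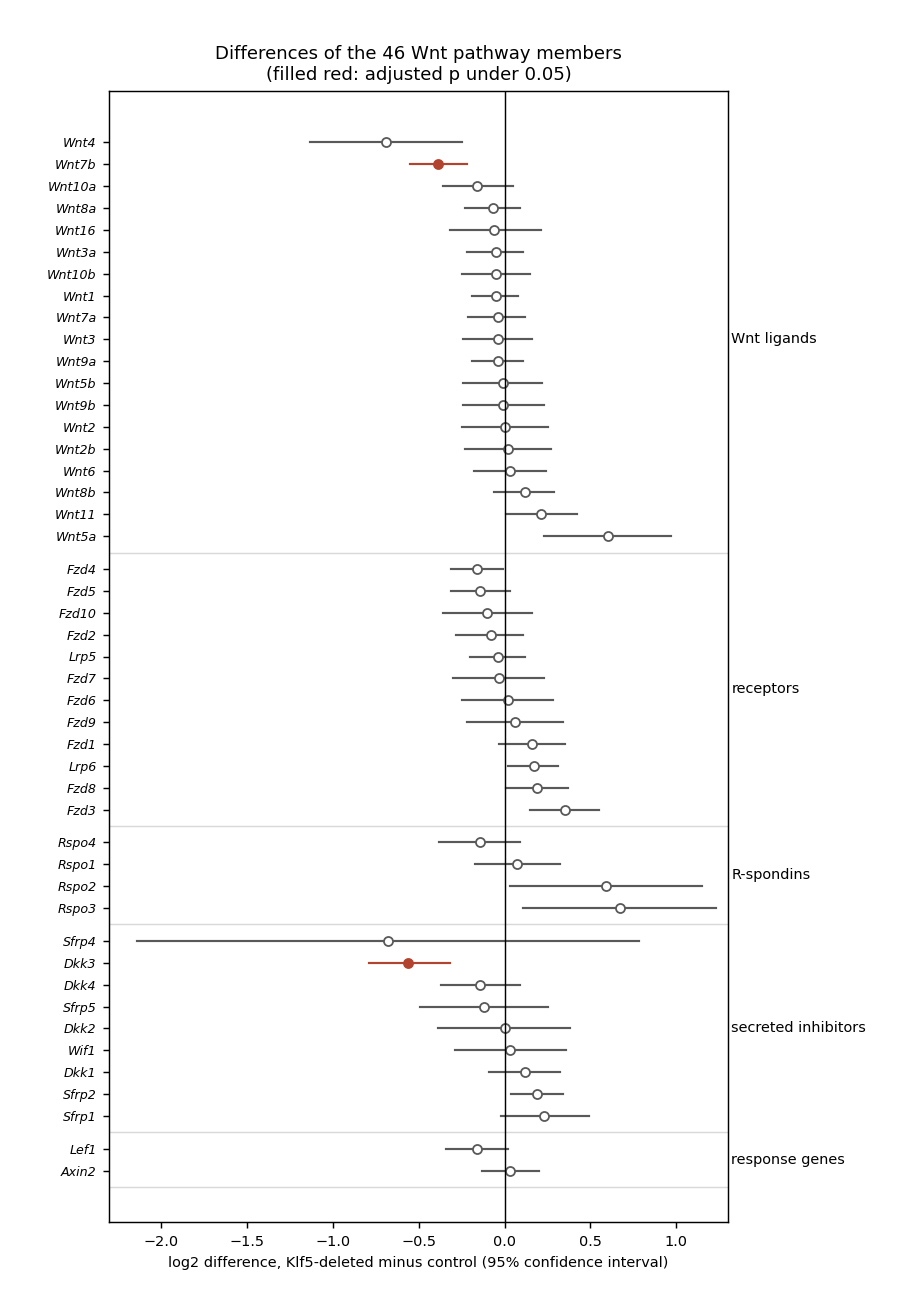
Log2 difference, Klf5-deleted minus control (x axis), of each of the 46 members with its 95% confidence interval from limma, grouped by class. Wnt7b at -0.39 and Dkk3 at -0.56 are the filled points, past an adjusted p of 0.05; the interval of Sfrp4, from -2.14 to 0.78, is the widest.

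None of the 10 Frizzled receptors or the 2 Lrp co-receptors passed the threshold. Fzd3, a receptor of planar polarity and axon guidance, came closest. It read 9.97, 9.89 and 9.85 in Klf5-deleted bladders, against 9.51, 9.44 and 9.70 in control bladders. The groups lay apart, and the difference of 0.35 (95% confidence interval 0.15 to 0.55) had an adjusted p of 0.103 by limma. Lrp6, the main co-receptor of the canonical branch, read 11.19, 11.17 and 11.21 in Klf5-deleted bladders and 11.01, 10.97 and 11.09 in control bladders. The Klf5-deleted arrays lay close together above the controls, with a difference of 0.17 (SE 0.06, adjusted p = 0.28 by limma). Its relative Lrp5 differed by -0.04 with overlapping groups.

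Fzd4, which also receives norrin in retinal vessels, read 10.20, 10.28 and 10.30 in Klf5-deleted bladders, against 10.41, 10.38 and 10.48 in control bladders. It was lower on every Klf5-deleted array, by 0.16 on average, and did not pass (adjusted p = 0.299 by limma). Fzd1 was higher on every Klf5-deleted array, at 12.15, 11.92 and 11.92 in Klf5-deleted and 11.86, 11.78 and 11.87 in control bladders. The gap between the groups was 0.05, smaller than the range within the Klf5-deleted group, and the difference was 0.16 (adjusted p = 0.433 by limma), or 0.09 without Klf5-deleted 1. Fzd8 read 9.32, 9.11 and 9.26 in Klf5-deleted bladders and 9.11, 8.99 and 9.02 in control bladders. Its groups met at 9.11, and the difference was 0.19 (adjusted p = 0.326 by limma). Fzd2, Fzd5, Fzd6, Fzd7, Fzd9 and Fzd10 had overlapping groups and differences between -0.14 and 0.06; that of Fzd5 was -0.14, and -0.09 without control 2.

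Rspo2 and Rspo3, R-spondins that bind Lgr receptors and keep Rnf43 and Znrf3 from removing Frizzled, had with Wnt5a the largest positive differences of the 46, with wide spread and no call. Rspo3 read 8.29, 9.23 and 8.86 in Klf5-deleted bladders, against 8.10, 8.42 and 7.87 in control bladders. Klf5-deleted 1 lay below control 2, so the groups overlapped. The difference was 0.67 (95% confidence interval 0.11 to 1.23, adjusted p = 0.266 by limma). Rspo2 read 7.35, 7.17 and 8.05 in Klf5-deleted bladders, against 6.74, 7.27 and 6.79 in control bladders. Control 2 lay above Klf5-deleted 2, and the difference of 0.59 (SE 0.24) had an adjusted p of 0.321 by limma. The difference of Rspo2 was 0.33 without Klf5-deleted 3.

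Like Rspo2, 6 marker lists were highest on array 3 of the Klf5-deleted and array 2 of the control group: skeletal muscle, leukocytes, neurons and glia, erythroid cells, nephric duct and intestine. The mean log2 level of the skeletal muscle markers was 9.31, 9.59 and 10.31 on Klf5-deleted arrays 1 to 3 and 8.75, 9.73 and 8.92 on control arrays 1 to 3. All 5 were higher on average in Klf5-deleted bladders and none passed the threshold; the part of these lists in the Rspo2 values was not tested. Rspo1 differed by 0.07 and Rspo4 by -0.14 (-0.05 without Klf5-deleted 1), with overlapping groups. No R-spondin had groups that lay apart. With arrays centred on housekeeping genes, which moved every difference up by about 0.09, 2 did, both higher. The share of all genes apart was not counted in that setting.

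Among the secreted inhibitors Dkk3 fell and the other 8 did not pass. Dkk3 is the member of its family that is not known as a blocker of Lrp6, unlike Dkk1, Dkk2 and Dkk4. It read 9.83, 9.91 and 9.94 in Klf5-deleted bladders, against 10.67, 10.39 and 10.31 in control bladders. All Klf5-deleted arrays lay below all control arrays, and they spanned 0.10. The means were 9.90 ± 0.05 against 10.45 ± 0.19 (SD, n = 3 each), a difference of -0.56 (95% confidence interval -0.79 to -0.32) or a level 1.47-fold lower, with an adjusted p of 0.0408 by limma. Leaving out any single array gave -0.63 to -0.45 and an adjusted p by limma of 0.0517 to 0.165, the smallest difference without control 1. With arrays centred on housekeeping genes it was -0.47 and past the threshold (adjusted p = 0.0407 by limma). The mean log2 level of the smooth muscle markers ran in the same array order as Dkk3 within each group, and no other marker list did so in both groups. For smooth muscle the mean was 12.28, 12.39 and 12.50 on Klf5-deleted arrays 1 to 3 and 12.79, 12.65 and 12.50 on control arrays 1 to 3. The list was picked for that order, which rests on 3 arrays per group. The part of the cell mixture in the Dkk3 values was not tested.

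The 3 Dickkopf genes whose proteins bind Lrp5 and Lrp6 had overlapping groups. Dkk1 differed by 0.12, Dkk2 by 0.00 and Dkk4 by -0.14, with adjusted p of at least 0.588 by limma. These values moved when single controls were left out: without control 2 Dkk2 differed by 0.18 and Dkk4 by -0.04, and without control 1 Dkk1 differed by 0.03. Wif1, which binds Wnt ligands directly, read 6.99, 7.04 and 7.48 in Klf5-deleted bladders and 6.98, 7.24 and 7.19 in control bladders. The arrays of the groups were interleaved, and the difference was 0.03 (SE 0.14, adjusted p = 0.953 by limma).

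Sfrp1 and Sfrp2, secreted proteins that share the Wnt-binding domain of Frizzled receptors, were higher on every Klf5-deleted array without passing. Sfrp2 read 13.01, 13.09 and 13.02 in Klf5-deleted bladders, against 12.90, 12.78 and 12.86 in control bladders. The difference was small next to that of Dkk3, at 0.19 (95% confidence interval 0.04 to 0.34, adjusted p = 0.227 by limma). Sfrp1 read 12.40, 12.38 and 12.65 in Klf5-deleted bladders, against 12.36, 12.05 and 12.31 in control bladders. Its groups were separated by 0.02, and the difference of 0.23 had an adjusted p of 0.394 by limma. It was 0.14 without control 2 and 0.15 without Klf5-deleted 3.

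Sfrp4 and Sfrp5, like Dkk2, each had their highest value on control 2. Sfrp4 read 6.06, 6.43 and 6.46 in Klf5-deleted bladders, against 6.13, 8.66 and 6.20 in control bladders. The mean difference of -0.68 (SE 0.62, adjusted p = 0.694 by limma) became 0.15 without control 2. Sfrp5 read 7.16, 7.38 and 7.32 in Klf5-deleted bladders, against 7.14, 7.77 and 7.31 in control bladders, and its difference of -0.12 became 0.06 without control 2. Control 2 is also the array with the placental markers, and their part in these values was not tested. It held the highest value of 12 of the 46 members, and control 3 that of 11.

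**Figure D3:**
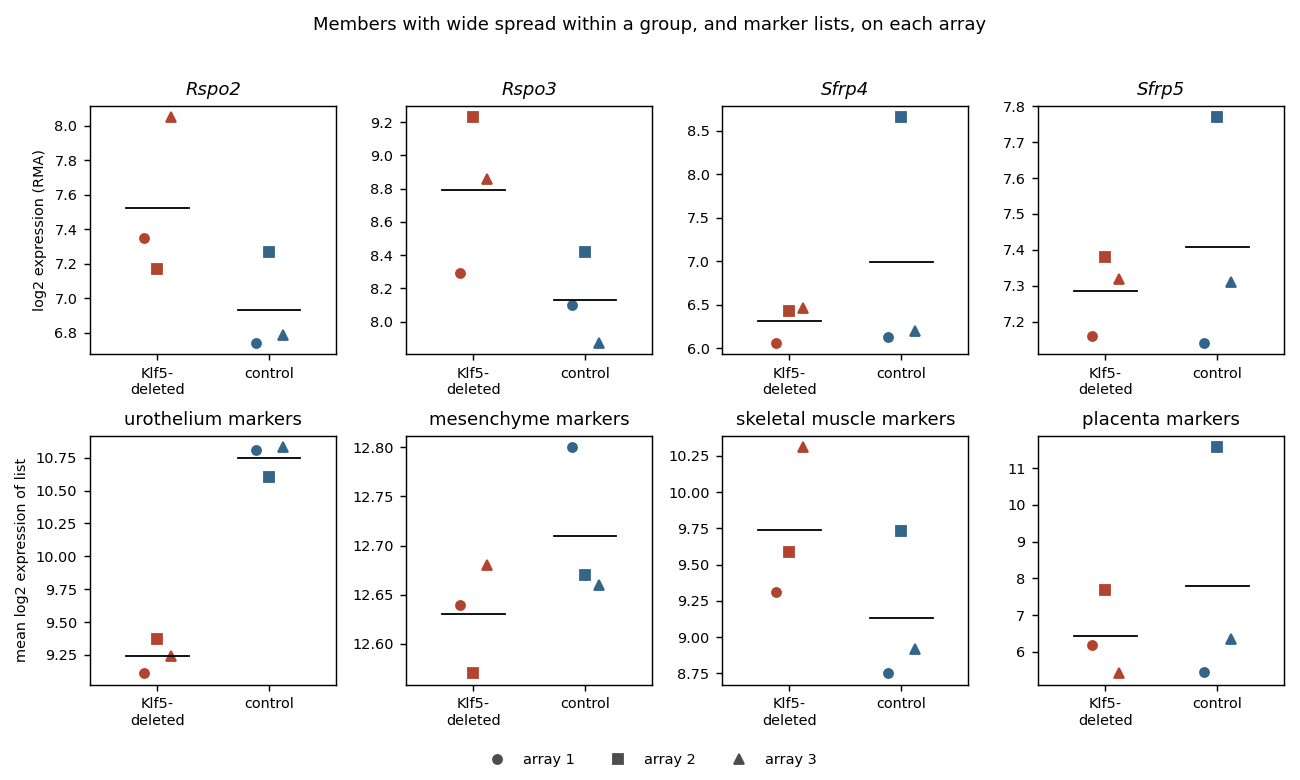
Upper row: log2 expression (RMA) of Rspo2, Rspo3, Sfrp4 and Sfrp5 on each array; lower row: mean log2 expression of 4 marker lists on each array, with the y axis scaled to each panel. Bars are group means; Sfrp4 reads 8.66 on control array 2, where the placental markers average 11.57.

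The response genes of the canonical branch did not pass. Axin2, a direct feedback target of beta-catenin, read 8.93, 8.86 and 8.95 in Klf5-deleted bladders, against 8.91, 8.95 and 8.78 in control bladders. The arrays were interleaved, and the difference of 0.03 had a 95% confidence interval of -0.13 to 0.20. Lef1, the DNA-binding partner of beta-catenin, read 8.90, 8.96 and 8.83 in Klf5-deleted bladders, against 9.00, 8.99 and 9.17 in control bladders. It was lower on every Klf5-deleted array, with a difference of -0.16 (SE 0.08, adjusted p = 0.406 by limma) that was -0.10 without control 3. Its groups overlapped after a second quantile normalization. They also overlapped with arrays centred on housekeeping genes, which moved every difference up by about 0.09 and that of Lef1 to -0.07.

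Of 75 other genes of the pathway, chosen as 5 lists, 74 were measured and 2 passed the threshold, both falls and both extracellular. These are 2.70% of the genes, against 1.98% of all genes. Sostdc1, a secreted antagonist of BMP and Wnt signals in teeth, skin and kidney, read 9.39, 9.03 and 9.21 in Klf5-deleted bladders, against 10.79, 10.53 and 10.14 in control bladders. The groups were separated by 0.75, and the difference of -1.27 (95% confidence interval ending at -0.88), or a level 2.42-fold lower, had an adjusted p of 0.0128 by limma. It was larger in size than that of any of the 46 members, and it passed without each single array except Klf5-deleted 2, where the adjusted p by limma was 0.065. Dkkl1, a relative of Dkk3, read 6.95, 6.97 and 7.10 in Klf5-deleted bladders and 7.34, 7.36 and 7.36 in control bladders. Both group means, 7.01 and 7.35, lay below the array medians of 7.68 to 7.80, and leaving out dim genes removes Dkkl1 from the test. Its difference of -0.35 had an adjusted p of 0.0489 by limma, and of 0.063 to 0.188 when any single array was left out. It did not pass with a trended, robust variance (adjusted p = 0.0555 by limma), a second quantile normalization (0.0669) or arrays centred on housekeeping genes (0.144). Frzb, another secreted Frizzled-related protein, differed by -0.21 and did not pass.

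In the other 4 lists no gene passed. Kremen1, a receptor for Dkk proteins, was lower on every Klf5-deleted array, with means of 10.08 against 10.44 and a difference of -0.37 (adjusted p = 0.116 by limma). Lrp4 differed by 0.24. In the list of cytoplasmic and nuclear components, the co-repressor gene Tle4 differed by -0.28 (-0.15 without Klf5-deleted 1) and the beta-catenin cofactor gene Pygo1 by 0.19. In the planar polarity list, Vangl1 and Daam1 differed by -0.24 and -0.21, each lower on every Klf5-deleted array. Of 14 target genes of beta-catenin the difference was negative for 10 and positive for 4, with a median of -0.10. At an unadjusted p under 0.05 by limma 4 of the 14 were lower (28.6%) and 0 higher, where 8.08% and 6.34% of all genes were. Over all 74 pathway genes 10 were lower and 5 higher at that level. After centring on housekeeping genes, which moved every difference up by about 0.09, the differences of the 14 targets were negative for 8 and positive for 6, with a median of -0.01. Without Klf5-deleted 1 they were also negative for 8 and positive for 6, with a median of -0.05. Tnfrsf19, a receptor gene among these targets, read 11.07, 10.85 and 10.99 in Klf5-deleted bladders, against 11.39, 11.33 and 11.30 in control bladders. Its difference of -0.37 had an adjusted p of 0.0631 by limma, or 0.0406 with a trended, robust variance. Ascl2 differed by -0.32 (adjusted p = 0.16 by limma).

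**Figure D4:**
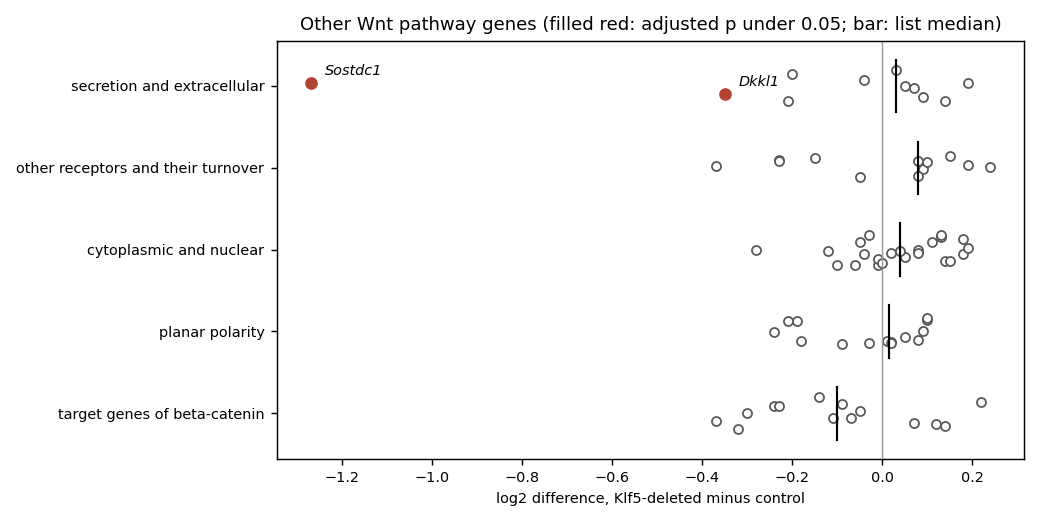
Log2 difference, Klf5-deleted minus control (x axis), of each of the 74 measured pathway genes outside the 46, by list, with vertical bars at the list medians. Sostdc1 at -1.27 and Dkkl1 at -0.35 are the filled points, past an adjusted p of 0.05, and the other genes lie between -0.37 and 0.24.

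Klf5 is known to bind GC-rich boxes and CACCC elements, so the sequence before the start of Wnt4, Fzd4 and Lef1 is shown, the members with lower, non-overlapping groups that have an entry in the RefSeq promoter table (GRCm38.p6). Capitals mark the GC box GGGCGG or its reverse complement CCGCCC, with overlapping matches counted.
Wnt4 (chr4:137277385-137277634, plus strand): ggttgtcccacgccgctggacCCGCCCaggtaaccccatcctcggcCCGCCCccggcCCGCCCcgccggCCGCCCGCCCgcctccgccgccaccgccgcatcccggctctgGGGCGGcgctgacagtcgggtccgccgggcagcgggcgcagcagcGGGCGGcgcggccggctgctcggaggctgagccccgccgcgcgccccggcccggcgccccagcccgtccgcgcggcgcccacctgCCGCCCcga
Fzd4 (chr7:89404116-89404365, plus strand): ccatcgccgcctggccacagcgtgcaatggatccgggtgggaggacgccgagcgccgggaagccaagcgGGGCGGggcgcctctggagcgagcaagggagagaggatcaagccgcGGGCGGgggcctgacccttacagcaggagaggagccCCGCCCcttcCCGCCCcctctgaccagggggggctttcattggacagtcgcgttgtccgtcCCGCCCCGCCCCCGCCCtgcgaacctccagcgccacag
Lef1 (chr3:131110047-131110296, plus strand, the first of its 4 starts): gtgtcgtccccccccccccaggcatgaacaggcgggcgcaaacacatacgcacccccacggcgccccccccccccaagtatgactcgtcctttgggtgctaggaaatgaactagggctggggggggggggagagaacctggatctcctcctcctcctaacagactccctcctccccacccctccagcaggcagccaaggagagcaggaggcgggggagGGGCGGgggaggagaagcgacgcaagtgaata
The 250 bases held 8 GC boxes for Wnt4, 7 for Fzd4 and 1 for Lef1. CACCC or GGGTG matched 0 times for Wnt4, 1 time for Fzd4 and 3 times for Lef1, and the Tcf/Lef core CTTTGA or TCAAAG matched in none of them. Windows of this length held a GC box in 32.7%, CACCC or GGGTG in 52.0% and the Tcf/Lef core in 13.8% of the 32851 promoters in the table. For 30 of the 46 members the table had an entry, with 36 promoters. Of these promoters 26 held a GC box, 27 CACCC or GGGTG and 5 the Tcf/Lef core. Counted by gene, with a match at any start, 23 of the 30 held a GC box, 21 CACCC or GGGTG and 5 the Tcf/Lef core. A match describes these letters and not binding, which these arrays did not measure. Wnt7b and Dkk3 have no entry.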

How the data were processed

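RNA of 6 pools was measured, 3 per group, as the sample titles give them. The authors deposited log2 expression values made with RMA, per the submitters' processing notes. The sources used here do not give the version, chip definition or genome build. The log2 scale was read from the range of the values, 3.24 to 14.6. Array medians were 7.68 to 7.80. The number of arrays limits the precision, and RMA compresses differences of dim features.

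Of 35557 features, 21789 had a single symbol in the platform annotation, 1621 several and 12147 none. Features with a single symbol were kept, and for the 999 genes with several the feature with the highest mean stood for the gene, which left 19938 genes. All 46 members matched RefSeq by Entrez identifier. limma 3.58.1 in R 4.3.3 (lmFit, eBayes, two-sided) compared Klf5-deleted minus control on all genes, with Benjamini-Hochberg adjustment. P-values measure the spread between pools, and the labels do not say whether pools came from separate litters. On simulated arrays for this comparison, with 200 of 19938 genes changed in each of 10 runs, the procedure recovered 98.2% of genes changed by 1 and 62.6% of genes changed by 0.5 on the log2 scale, and 5.19% of calls were unchanged genes. The simulated noise was normal and independent between genes, with the SDs that limma had estimated. It held no cell mixture that varies between pools, so these shares need not hold for the real arrays.

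The members, the lists of pathway genes and cell markers, and the alternatives were chosen with earlier results of these data known. The rule for named genes took members past the threshold, members whose groups did not overlap, the 2 largest differences of each class, and Axin2, Lef1, Wnt7b, Dkk3 and Wif1, each with the value on every array; the other members are given by their differences. In each pathway list it took the genes past the threshold and the 2 largest differences. Frzb, the values of Sfrp5 on each array, the marker lists compared with Dkk3 and Rspo2 by array order, the promoter windows and the motifs were chosen after values were seen. Alternatives were the mean of a gene's features, leaving out dim genes, centring on 8 measured housekeeping genes, a second quantile normalization, trended and robust variances, array weights, the replicate number as a block, and leaving out each array.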

Additional observations from a re-analysis of the deposited data

How the results depend on the processing

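Of the 46 members, 2 passed the threshold, and 2 also did with the mean of a gene's features, with trended and robust variances and with array weights. Centring on housekeeping genes and a second quantile normalization left 1, Dkk3, and leaving out dim genes, which removes Wnt7b from the test, also left 1, Dkk3. With the replicate block 1 member passed, Wnt4 (-0.69, adjusted p = 0.0365 by limma), Wnt7b and Dkk3 did not (0.154 and 0.139), nor did Klf5 (0.137), and 110 of all genes passed, against 395 without it. Deviations from the group means correlated at 0.00915 to 0.0787 for same-numbered arrays and at -0.0533 to 0.011 for differently numbered ones. The same-numbered values were mostly the higher ones, but all were small, so the numbers were not taken as pairs. No member passed when any single array was left out (0 in each of the 6 fits by limma), with 7 to 11 members at an unadjusted p under 0.05, against 12 over all arrays. Members whose groups did not overlap then numbered 13 to 21, against 12, with fewer arrays to overlap. With centring 4 lay apart as lower and 11 as higher, against 5 and 7. The share of all genes with groups apart was not counted under these alternatives, so these numbers do not set the members apart from other genes. Of the other pathway genes 1 passed, against 2, with centring, a second quantile normalization, dim genes left out or the replicate block, and 0 to 1 with 1 array left out, 0 without Klf5-deleted 2. Over all genes 239 passed with dim genes left out, and 141 to 349 with 1 array left out: 141, 172 and 253 in the fits that dropped Klf5-deleted 1, 2 and 3, and 165, 349 and 261 in those that dropped control 1, 2 and 3. Centring subtracts from each array a single value, set by the median of its housekeeping genes, so by construction it moved every difference up alike, by about 0.09. The 8 housekeeping genes themselves had a median difference of 0.00 before centring and 0.08 after. Over all genes the split became 269 falls and 172 rises, against 318 and 77. The cause of the shifts under the other alternatives was not tested.

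Of the members, 22 kept their sign under every alternative that tested them, among them all 12 whose groups did not overlap. For those 12, leaving out a single array could not reverse the sign. The trended, robust variances and the replicate block leave every difference as it was. The other 24 members changed sign under at least 1 alternative. Those 24 did not pass the threshold under any of them. The log2 differences with the opposite sign were, with centring, Dkk2 0.08, Fzd2 0.00, Fzd7 0.05, Lrp5 0.04, Wnt1 0.03, Wnt10b 0.04, Wnt16 0.03, Wnt2 0.08, Wnt3 0.05, Wnt3a 0.03, Wnt5b 0.08, Wnt7a 0.04, Wnt8a 0.02, Wnt9a 0.05, Wnt9b 0.08; with a second quantile normalization, Dkk2 0.03, Wnt5b 0.02, Wnt9b 0.04; and with array weights, Fzd6 -0.02, Fzd7 0.00, Wnt2 0.06, Wnt5b 0.02. With 1 array left out the log2 differences ranged as follows: Axin2 -0.02 to 0.07, Dkk2 -0.10 to 0.18, Fzd6 -0.10 to 0.11, Fzd7 -0.13 to 0.05, Fzd9 -0.07 to 0.15, Rspo1 -0.03 to 0.17, Sfrp4 -1.11 to 0.15, Sfrp5 -0.25 to 0.06, Wif1 -0.12 to 0.12, Wnt10b -0.12 to 0.02, Wnt16 -0.18 to 0.04, Wnt2 -0.11 to 0.06, Wnt2b -0.10 to 0.12, Wnt3 -0.12 to 0.02, Wnt5b -0.08 to 0.07, Wnt6 -0.05 to 0.11, Wnt7a -0.08 to 0.01, Wnt9b -0.09 to 0.06. The positive value of Sfrp4 came without control 2.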
